A study of Mus musculus with 12 samples.

Results

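Potassium channel and transient receptor potential (TRP) channel genes were described in endothelial cells sorted from 2 tissues of the mouse, mesentery and epididymal fat, after feeding with chow or a high fat diet. Members were the rows of the deposited expression table whose symbol has the form of a potassium channel gene (Kcn, a family letter or letters and a number) or of a TRP gene of the canonical, melastatin, vanilloid or ankyrin class, without Kcnj8. The rule used gene names and no measured value. It found 79 genes of 27825 in the table, 60 potassium channel genes and 19 TRP genes.

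Potassium channels let potassium leave the endothelial cell and set its membrane potential. A more negative potential raises the driving force for calcium entry and can spread through gap junctions to the smooth muscle of the vessel wall, which then relaxes. TRP channels are cation channels that open to stretch, temperature, lipids or receptor signals, and several of them carry calcium into endothelial cells. In mesenteric arteries the intermediate and small conductance calcium-activated potassium channels and the inward rectifiers are known for their part in this endothelium-dependent dilation, and TRPV4 for its part in local calcium entry.

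Each of the 4 groups had 3 libraries of bulk RNA-seq. The mice of all groups were males that carried ROSA26-eYFP on both alleles and the tamoxifen-inducible Cdh5-CreERT2, so that the reporter marks cells in which the Cdh5 (VE-cadherin) promoter was active during tamoxifen feeding. The food held tamoxifen for 2 weeks, starting at 6 weeks of age. For the next 12 to 13 weeks, starting at 8 weeks of age, the mice ate chow (5.8% fat) or the high fat diet (60% fat). The groups are called chow mesentery, high fat mesentery, chow epididymal fat and high fat epididymal fat. Mesentery or epididymal fat pads of 6 mice were combined per sample, digested with actinomycin D, and YFP-positive cells were sorted after red blood cell lysis. The titles give the letters A, B and C within a group and the labels a sample number, 50, 51 and 87 on chow and 88, 52 and 53 on the high fat diet. The protocol text speaks of 2 independent replicates, so the spread between the 3 libraries of a group may in part be technical. The p-values measure differences against this spread within groups, estimated jointly over all 12 libraries.

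The 8 endothelial markers examined, Cdh5 and Pecam1 among them, were present in each of the 12 libraries. Their summed level was 86579 to 140488 normalized counts in mesentery and 23290 to 56405 in epididymal fat. Cdh5 (2657 to 4822 in mesentery, 2172 to 4627 in epididymal fat) and Erg (401 to 466, 362 to 546) overlapped between the tissues. Each other marker on this list was higher in each mesenteric than in each epididymal library. Markers of other cells were present too. Pancreatic acinar markers (6 of 6 found) summed to 42746 to 270237 in mesentery and 183 to 554 in epididymal fat. Macrophage and leukocyte markers (6 of 6) summed to 1344 to 6529 in chow mesentery, 3877 to 21733 in high fat mesentery, 4564 to 74511 in chow epididymal fat and 117430 to 289224 in high fat epididymal fat. Smooth muscle markers (7 of 7) summed to 293 to 1133, 523 to 1906, 5370 to 16180 and 3004 to 6520 in the same order of groups. Adipocyte markers (6 of 6) summed to 63085 to 85648 in chow epididymal fat and to 3899 to 13910 in the other 3 groups. Fibroblast markers (6 of 6) summed to 4278 to 9572 in mesentery and 17397 to 54588 in epididymal fat, and pericyte markers (6 of 6) to 753 to 2923 and 4560 to 14227. Red blood cell markers (2 of 3 found) summed to 72.1 to 203 in mesentery and 14503 to 19362 in epididymal fat, and lymphatic markers (5 of 5) to 743 to 1354 and 1867 to 4030. The sums of the fibroblast, pericyte, red blood cell, lymphatic and smooth muscle lists were higher in each epididymal than in each mesenteric library. On the lymphatic list Flt4 went the other way, with 581 to 953 in mesentery and 277 to 590 in epididymal fat. The part of these lists in the tissue differences of the channel genes was not tested. In bulk samples fewer cells of a type and less RNA per cell cannot be told apart. Reads assigned to genes ranged from 8348897 in mesenteric chow library C to 25397963 in epididymal high fat library C, and a floor of 3 reads was 2.12 to 4.22 normalized counts (counting error only). Among the libraries, reads on 645 olfactory and vomeronasal receptor genes, which endothelial cells are not known to use, were most frequent in mesenteric chow C, epididymal high fat A, epididymal chow C and mesenteric high fat C.

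The promoters of Kcnk5 and Kcnn4 are shown because these genes moved in opposite directions between the tissues on both diets. Each runs from 250 bases before to 50 bases after the RefSeq start, on GRCm38.p6. Kcnk5 lies at chr14:20181733-20182032 on the minus strand and Kcnn4 at chr7:24370013-24370312 on the plus strand, and both are printed 5′ to 3′ along the gene. Capitals mark the motifs found on either strand.
Kcnk5: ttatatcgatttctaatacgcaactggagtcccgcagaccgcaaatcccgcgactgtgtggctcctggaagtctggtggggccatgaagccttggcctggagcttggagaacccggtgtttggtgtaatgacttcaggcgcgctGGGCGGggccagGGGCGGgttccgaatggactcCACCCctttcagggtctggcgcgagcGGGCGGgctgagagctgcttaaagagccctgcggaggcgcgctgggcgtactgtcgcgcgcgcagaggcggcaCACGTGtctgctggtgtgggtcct
Kcnn4: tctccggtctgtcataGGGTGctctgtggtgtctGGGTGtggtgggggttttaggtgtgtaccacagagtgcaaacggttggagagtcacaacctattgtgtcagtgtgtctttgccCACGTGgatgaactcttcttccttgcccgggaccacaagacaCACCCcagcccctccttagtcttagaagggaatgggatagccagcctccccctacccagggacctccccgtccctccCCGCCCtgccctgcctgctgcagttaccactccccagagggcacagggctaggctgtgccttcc
The motifs searched, on both strands, were the GC box GGGCGG, the KLF-type box CACCC, the ETS-type box CGGAAG, the TATA-type box TATAAA, the E-box CACGTG and the GATA-type box AGATAA. Kcnk5 held 3 GC boxes, 1 CACCC and 1 E-box, and Kcnn4 held 1 GC box, 3 CACCC and 1 E-box. The letters of the other 3 motifs were in neither window. Among 32851 promoters of this length the GC box was in 35.66%, CACCC in 57.52% and the E-box in 7.15%. Of the 79 genes 59 were in the promoter table, with 85 promoters, of which 40% held the GC box, 76.47% CACCC and 11.76% the E-box. These matches describe the letters and were not tested.

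Most of the 79 genes were low. Over the 12 libraries 14 had a mean of at least 100, 53 a mean of 10 to 100, and 12 a mean under 10. The last 12 were not tested (Kcna1, Kcnab3, Kcnc1, Kcne2, Kcnh4, Kcnh5, Kcnk7, Kcnn1, Kcnv1, Trpa1, Trpc5 and Trpv6). At the threshold, Kcna1 had a mean of 9.46 and was left out, and Trpv1 had 10.2 and was kept. A member that passed this filter through its level in 1 group had to differ between groups, so the counts of passing members below describe the list and support nothing by themselves. Above 3 reads in all 12 libraries were 26 members. In all 3 libraries of a group this held for 38 members in chow mesentery, 41 in high fat mesentery, 52 in chow epididymal fat and 60 in high fat epididymal fat. The floor is in reads, so these counts vary with depth, and the same share over all genes was not computed. Genes of the whole table with a read numbered 23125 to 26015 in mesenteric and 23264 to 27691 in epididymal libraries.

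To compare genes, normalized counts were divided by exon length in kilobases. The highest mean over the 12 libraries on this scale was that of Kcne3, 195 per kilobase, which encodes a single-span subunit that joins voltage-gated channels. Kcna5, the voltage-gated channel Kv1.5, followed at 126. Kcnk5 (80.2), Kcnq1 (78.4) and Kcne4 (78.3) came next, then Kcnn4 (69.3), Trpv4 (63.9) and Trpm7 (61.0). In chow mesentery the order was led by Kcnk5 (195 ± 26.8, SD, n = 3), Kcnq1 (128 ± 9.03) and Kcne3 (127 ± 14.5), the last pair within their spread. In high fat mesentery it was led by Kcne3 (174 ± 51.1), Kcnq1 (118 ± 26.0) and Kcnk5 (116 ± 32.6), which all overlapped. In its library B Kcne3 was 118, below Kcnq1 (148) and Kcnk5 (133). In chow epididymal fat Kcna5 (267 ± 38.0), Kcne3 (251 ± 42.1) and Kcne4 (228 ± 162) led and did not differ beyond their spread. In high fat epididymal fat Kcne3 (230 ± 60.1) and Kcnn4 (186 ± 75.6) led and overlapped.

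The receptor genes gave a background on the same scale, 0.499 to 11.8 normalized counts per kilobase depending on the library. More than 3 times this background in all 12 libraries were 3 members, Kcne3, Trpv4 and Trpm7; 49 members were so in 1 to 11 libraries and 27 in none. In all 3 libraries of chow mesentery 7 members were above it: Kcne3, Kcna5, Kcnk5, Kcnq1, Trpv4, Trpm7 and Kcnj13. In chow epididymal fat there were 11, with Kcne4, Kcnn4, Trpv2, Kcnc2 and Kcnj15 among them and without Kcnk5 and Kcnj13. The bar differed by library, since the background was lowest in epididymal chow A (0.499) and highest in mesenteric chow C (11.8). In single libraries A, B and C 11, 15 and 8 members were above it in chow mesentery. In chow epididymal fat 44, 45 and 12 were. The counts of 7 and 11 therefore vary with the background, and the same share over all genes is not given here. Of the 4 libraries with the highest background, mesenteric chow C, epididymal chow C and epididymal high fat A held the highest value of 43 of the 79 members. These 3 libraries carry the numbers 87 and 88, as does mesenteric high fat library A. With the number range as a term, 6 of the 67 tested members passed and were higher in 87 and 88 (Kcnk9, Kcnk10, Kcnmb3, Kcnq3 and Trpc4 among them), against 3.88% of all tested genes that passed in that direction (4.6% in either direction). The median log2 difference was 1.13 for members and 0.055 for all tested genes. What the numbers stand for is not given in the sources used here.

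**Figure D1:**
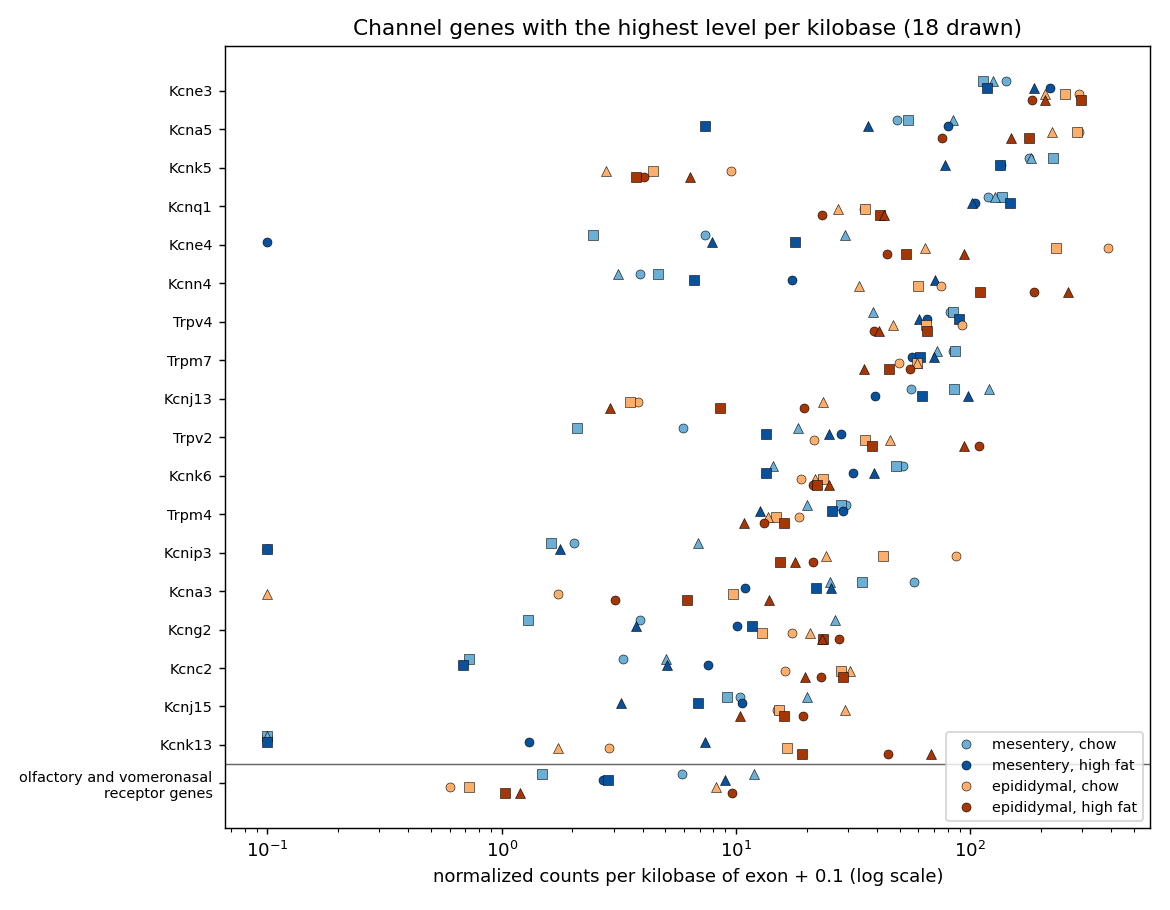
Channel genes among the 20 with the highest mean level per kilobase of exon (18 are drawn), 1 point per library on a log axis (normalized counts per kilobase + 0.1; circle, square and triangle are libraries A, B and C), with the receptor gene background at the bottom. Kcne3, Trpv4 and Trpm7 lie right of the background in each library, whereas Kcnk5 reaches 226 in mesentery and at most 9.43 in epididymal fat.

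The tissues differed on chow in 15 of the 67 tested members, a share of 22.4% against 12.8% of all tested genes, at an adjusted p under 0.05 (limma on log2 of normalized count + 1, Benjamini-Hochberg over 22238 genes). In epididymal fat 11 were higher (all tested genes 7.32%) and 4 lower (5.47%). On the high fat diet 7 members differed, 10.4% against 8.34%, of which 5 were higher (4.91%) and 2 lower (3.43%). The balance over all tested genes depended on the scaling. With columns scaled to the same total, 3.16% were higher and 5.78% lower under high fat feeding, and 8.76% higher and 4.26% lower on chow. Of the members 4 were then higher and 2 lower under high fat feeding, and 11 and 4 on chow. The median log2 difference, epididymal minus mesenteric, was -0.066 for members and -0.075 for all tested genes on chow, and 0.69 and 0.060 on the high fat diet. The median over members varied between libraries of a group, with an SD of 0.973 log2 units. Groups did not overlap in 23 members on chow (28.7% of all tested genes) and in 21 on the high fat diet (26.4%). Kcnk5, Kcnq1, Kcnn4, Kcnip3, Kcnip1 and Kcnc2 passed on both diets, each in the same direction, which was 40% of the chow calls and 85.7% of the high fat calls. Over all tested genes these shares were 42.4% and 65.0%. The chow contrast and the high fat contrast share no library but use the same estimate of the spread of a gene, from all 12 libraries. Their calls are therefore not independent.

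These counts depended on the libraries and the tool. Leaving out 1 library at a time gave 4 to 17 members on chow, with 7 without mesenteric chow A, 5 without mesenteric chow B or epididymal chow B, and 4 without epididymal chow A. All tested genes moved too, to 7.46%, 8.77%, 6.82% and 6.85% without mesenteric chow A, mesenteric chow B, epididymal chow B and epididymal chow A. The high fat count ranged from 3 to 12, with 12 without mesenteric chow C, 4 without epididymal high fat B and 3 without epididymal high fat C, where all tested genes were at 11.3%, 5.74% and 3.27%. Without the 4 libraries with the highest receptor level (mesenteric chow C, mesenteric high fat C, epididymal chow C, epididymal high fat A), a setting chosen after the data were seen, the counts were 20 on chow and 14 under high fat feeding, and the shares of all tested genes 21.3% and 14.9%. The split on the high fat diet was 2 higher and 2 lower with edgeR and TMM scaling, and on chow 11 higher and 2 lower with edgeR and the deposited size factors. Of the 22 calls of 16 members 6 held in each left-out-library fit and each other setting: Kcnk5 and Kcnq1 on both diets, Kcnn4 on chow and Kcnip3 on the high fat diet.

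**Figure D2:**
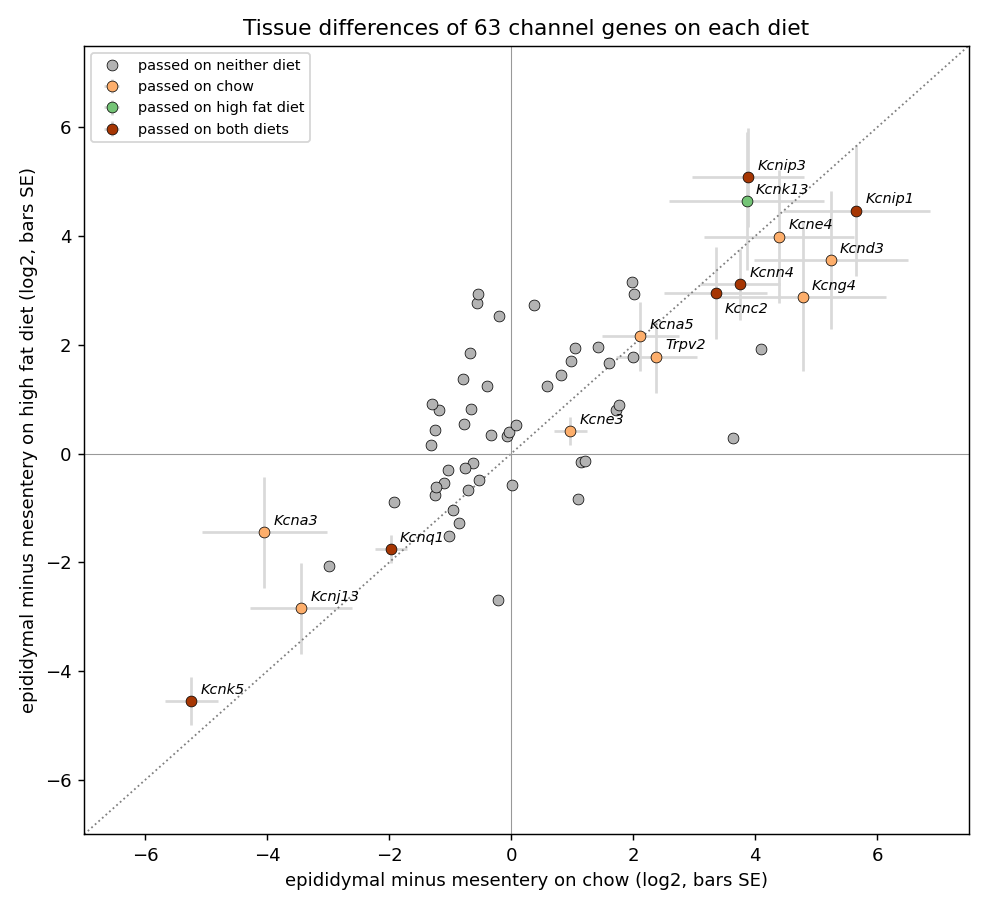
Tissue difference of 63 tested channel genes on chow (horizontal) and on the high fat diet (vertical), epididymal minus mesenteric, in log2 units with bars of 1 SE and a dotted line of equality. Kcnk5 (-5.24 and -4.56) and Kcnq1 (-1.97 and -1.75) lie low on both axes, and Kcnip1, Kcnn4, Kcnip3 and Kcnc2 high on both.

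Of two-pore domain channels, which carry background potassium currents, Kcnk5 set the tissues furthest apart on chow. Kcnk5 (ENSMUSG00000023243) encodes TASK-2, a channel opened by alkaline pH. It had 605, 769 and 618 normalized counts in chow mesentery, 462, 453 and 266 in high fat mesentery, 32.1, 14.8 and 9.19 in chow epididymal fat and 13.5, 12.4 and 21.2 in high fat epididymal fat. The 6 mesenteric libraries were all above the 6 epididymal ones. The difference was -5.24 log2 units on chow (SE 0.440, adjusted p 9.49e-06) and -4.56 on the high fat diet (adjusted p 3.45e-05). Pancreatic acinar markers were also higher in mesentery; in its chow libraries A, B and C they summed to 270237, 204556 and 42746, where Kcnk5 was 605, 769 and 618, and their part in the result was not tested.

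Kcnk13, which encodes the halothane-inhibited channel THIK-1, went the other way. It had no reads in chow mesentery, 3.74, 0 and 22.7 normalized counts in high fat mesentery, 8.61, 51.3 and 5.11 in chow epididymal fat, and 138, 59.5 and 211 in high fat epididymal fat. The epididymal high fat libraries were above all others. The tissue difference passed on the high fat diet (4.65, SE 1.27, adjusted p 0.0388) and not on chow (adjusted p 0.0644), where the level was at least 6.29-fold higher against a floor of 3 reads per library. The high fat call was lost without any 1 of 6 libraries (mesenteric high fat A or B, epididymal chow A, epididymal high fat A, B or C; adjusted p up to 0.194). It was also lost with a pseudocount of 0.5 (0.0526), with edgeR under both scalings (0.154 and 0.168) and in the libraries numbered 50 to 53 alone (0.0848). Macrophage and leukocyte markers were highest in the same 3 epididymal libraries (152733, 117430 and 289224), and their part in the result was not tested.

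The other two-pore members named for a vascular role did not pass. Kcnk6, which encodes TWIK-2, was 59.1 to 214 in chow mesentery and 87.7 to 103 in high fat epididymal fat, and the 4 groups overlapped. Kcnk2 (TREK-1, opened by stretch) averaged 8.27 ± 5.38, 3.81 ± 3.74, 39.1 ± 26.6 and 26.3 ± 8.68 normalized counts (SD, n = 3) in chow mesentery, high fat mesentery, chow epididymal fat and high fat epididymal fat. Kcnk3 (TASK-1, closed by acid) averaged 12.2 ± 12.3, 21.2 ± 20.6, 27.3 ± 4.13 and 30.9 ± 8.92 in the same order.

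The calcium-activated potassium channels differed within the class. Kcnn4 (ENSMUSG00000054342), the intermediate conductance channel of endothelial dilation, was higher in epididymal fat on both diets. It had 19.4, 23.3 and 15.5 normalized counts in chow mesentery, 87.9, 33.3 and 362 in high fat mesentery, 383, 307 and 171 in chow epididymal fat and 953, 563 and 1336 in high fat epididymal fat. Within each diet the 3 epididymal and 3 mesenteric libraries did not overlap. The tissue difference was 3.76 log2 units on chow (SE 0.656, adjusted p 0.00218) and 3.12 on the high fat diet (adjusted p 0.0109), and the latter was lost without epididymal high fat C (adjusted p 0.0688), with edgeR and TMM scaling (0.0550) and in the libraries numbered 50 to 53 alone (0.0606). Macrophage and leukocyte markers moved with Kcnn4 between groups. In libraries A, B and C of chow epididymal fat they were 7303, 74511 and 4564 where Kcnn4 was 383, 307 and 171. Red blood cell markers were 14503 to 19362 in epididymal fat and 72.1 to 203 in mesentery. The part of both marker lists in the Kcnn4 result was not tested.

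The small conductance channel Kcnn3, the other calcium-activated channel known in endothelium, was low. It averaged 20.5 ± 28.6 and 8.56 ± 14.8 normalized counts in mesentery on the 2 diets (chow first) and 44.0 ± 14.3 and 26.4 ± 6.96 in epididymal fat, and the tissue difference on the high fat diet was 3.16 (SE 1.32, adjusted p 0.179). Without the 4 libraries with the highest receptor level it passed on chow (3.37, adjusted p 0.0208) and on the high fat diet (4.63, adjusted p 0.00683). That setting was chosen after the data were seen and drops a library from each group. Over all alternatives, left-out libraries included, Kcnn3 passed in 1 of 23 on chow and 2 of 22 on the high fat diet. Kcnn2, another small conductance channel, averaged 34.1 to 71.8 in the 4 groups with SDs of 29.8 to 55.0. Kcnma1, the large conductance channel typical of smooth muscle, was 91.5 in mesenteric chow C, 102 in epididymal chow C and 150 in epididymal high fat A, and 0.896 to 53.4 elsewhere. Its auxiliary subunit Kcnmb1 averaged 8.78 to 32.1 normalized counts in the groups. None of the last 3 passed in any contrast.

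Among inward rectifiers Kcnj13 (ENSMUSG00000079436), the low conductance channel Kir7.1, was higher in mesentery. It had 70.6, 108 and 152 normalized counts in chow mesentery, 49.6, 79.0 and 124 in high fat mesentery, 4.70, 4.34 and 29.6 in chow epididymal fat and 24.7, 10.7 and 3.54 in high fat epididymal fat. Each mesenteric library was above each epididymal one. The difference passed on chow (-3.44, SE 0.833, adjusted p 0.0156) and missed the threshold on the high fat diet (-2.84, adjusted p 0.0526). The chow call was lost without mesenteric chow B or epididymal chow A or B (adjusted p up to 0.0740), and with edgeR on the deposited size factors (0.0511). Kcnj13 shares 49.1% of its exon bases with Gigyf2 on the opposite strand (GENCODE M21), which was 568 to 876 in mesentery and 357 to 540 in epididymal fat; whether counting used strand is not given in the sources used here, so reads from the pair cannot be told apart.

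Kcnj2, the strong inward rectifier Kir2.1 of endothelium, had 36.4, 37.6 and 32.4 normalized counts in chow mesentery and 69.7, 78.2 and 74.6 in chow epididymal fat. On the high fat diet it had 19.6, 11.1 and 123 in mesentery and 183, 92.5 and 99.1 in epididymal fat. The chow groups were tight and did not overlap, and mesenteric high fat C stood above its group. No tissue contrast of Kcnj2 passed (adjusted p 0.112 on the high fat diet). Without the 4 libraries with the highest receptor level, among them mesenteric high fat C, it passed on the high fat diet (2.61, adjusted p 0.00635). Over all alternatives, left-out libraries included, it passed in 2 of 24 on the high fat diet and in 0 of 24 on chow. Kcnj11 was not in the table.

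Of the voltage-gated channels, 2 were higher in mesentery. Kcnq1 (ENSMUSG00000009545), the Kv7.1 pore subunit, had 486, 560 and 520 normalized counts in chow mesentery and 426, 606 and 417 in high fat mesentery. In epididymal fat it had 143, 145 and 111 on chow and 94.4, 168 and 175 on the high fat diet. The mesenteric libraries were all above the epididymal ones, with a difference (epididymal minus mesenteric) of -1.97 log2 units on chow (SE 0.265, adjusted p 0.000362) and -1.75 on the high fat diet (adjusted p 0.00127). Kcnq1 shares 2.96% of its exon bases with the antisense RNA Kcnq1ot1, which was 409 to 1187 in mesentery and 164 to 680 in epididymal fat. Kcna3, the Kv1.3 channel, had 109, 65.4 and 47.9 in chow mesentery and 3.13, 18.2 and 0 in chow epididymal fat (-4.05, SE 1.02, adjusted p 0.0195). Under high fat feeding its values were 20.6, 41.6 and 48.4 in mesentery and 5.62, 11.6 and 26.2 in epididymal fat, where the groups overlapped and the test did not pass. Pancreatic acinar markers were highest in mesenteric chow A and lowest in mesenteric chow C; there Kcnq1 was 486 and 520 and Kcna3 109 and 47.9, and the part of these markers was not tested. The Kcna3 chow call was lost without mesenteric chow A or B or epididymal chow A (adjusted p up to 0.0904), and with edgeR under both scalings (0.106 and 0.130).

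Kcna5 led the voltage-gated members that were higher in epididymal fat. It had 139, 155 and 242 normalized counts in chow mesentery, 229, 20.8 and 105 in high fat mesentery, 835, 817 and 638 in chow epididymal fat and 216, 507 and 428 in high fat epididymal fat. The chow groups did not overlap, and on the high fat diet 1 mesenteric library (229) was above 1 epididymal library (216). The difference was 2.12 on chow (SE 0.634, adjusted p 0.0431) and 2.16 on the high fat diet (adjusted p 0.0532). The chow call was lost in 8 of the 12 fits that left out a library (without mesenteric chow A or B, mesenteric high fat C, epididymal chow A, B or C, or epididymal high fat B or C; adjusted p up to 0.138). Kcna2, a relative that can form channels with Kcna5, averaged 21.0 to 62.4 in the groups and did not pass, nor did Kcnq5 (Kv7.5), which averaged 10.7 to 22.3.

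Kcnc2 (Kv3.2, a fast channel known from neurons) was 4.48 to 35.2 normalized counts in chow mesentery and 4.16 to 53.3 in high fat mesentery. In epididymal fat it was 114 to 218 on chow and 139 to 204 on the high fat diet. Within each diet the tissues did not overlap, and the difference was 3.36 on chow (SE 0.841, adjusted p 0.0187) and 2.95 on the high fat diet (adjusted p 0.0467). The chow call was lost without mesenteric chow B or epididymal chow B (adjusted p up to 0.0762). On the high fat diet it was lost in 9 of 12 such fits (all but mesenteric chow B and C and mesenteric high fat A; adjusted p up to 0.169), and without mesenteric high fat B the difference was 1.92. It was lost in 6 of 12 other settings too: a pseudocount of 0.5, no filter on low values, columns scaled to the same total, edgeR under both scalings, and without the 4 libraries with the highest receptor level (adjusted p 0.0515 to 0.103).

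Kcnd3 and Kcng4 passed on chow. Kcnd3 (the A-type channel Kv4.3) had 2.28, 0 and 7.04 normalized counts in mesentery and 308, 136 and 32.7 in epididymal fat (5.24, SE 1.26, adjusted p 0.0154). Kcng4 (Kv6.4, a subunit that modifies Kv2 channels) had at most 1 read per library in mesentery and 162, 49.5 and 5.11 normalized counts in epididymal fat, at least 21.0-fold higher against 3 reads per library (adjusted p 0.0358). For both genes library A of epididymal fat was the highest and C the lowest. In libraries A, B and C the smooth muscle markers likewise summed to 16180, 10370 and 5370 and the fibroblast markers to 54588, 38157 and 17397. The lymphatic markers summed to 4030, 2976 and 2272 and the arterial endothelial markers (6 of 6 found) to 8566, 7085 and 5924. Acta2 (12795, 8252 and 3700) and Dcn (50685, 35229.5 and 15369) made up most of the smooth muscle and fibroblast sums. Tagln (36.0, 40.8 and 53.1) and Pi16 (137, 144 and 205) went the other way. Lmod1, Actg2, Dpt, Prox1, Dll4, Gja4 and Efnb2 did not fall in this order either. The part of these lists in the result was not tested. In high fat libraries Kcnd3 was at most 38.8 and Kcng4 at most 17.3 in epididymal fat, and neither passed. The chow calls were lost without mesenteric chow B or epididymal chow A or B for Kcnd3 (adjusted p up to 0.0985) and without 6 libraries for Kcng4 (mesenteric chow A or B, epididymal chow A or B, epididymal high fat B or C; up to 0.198).

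**Figure D3:**
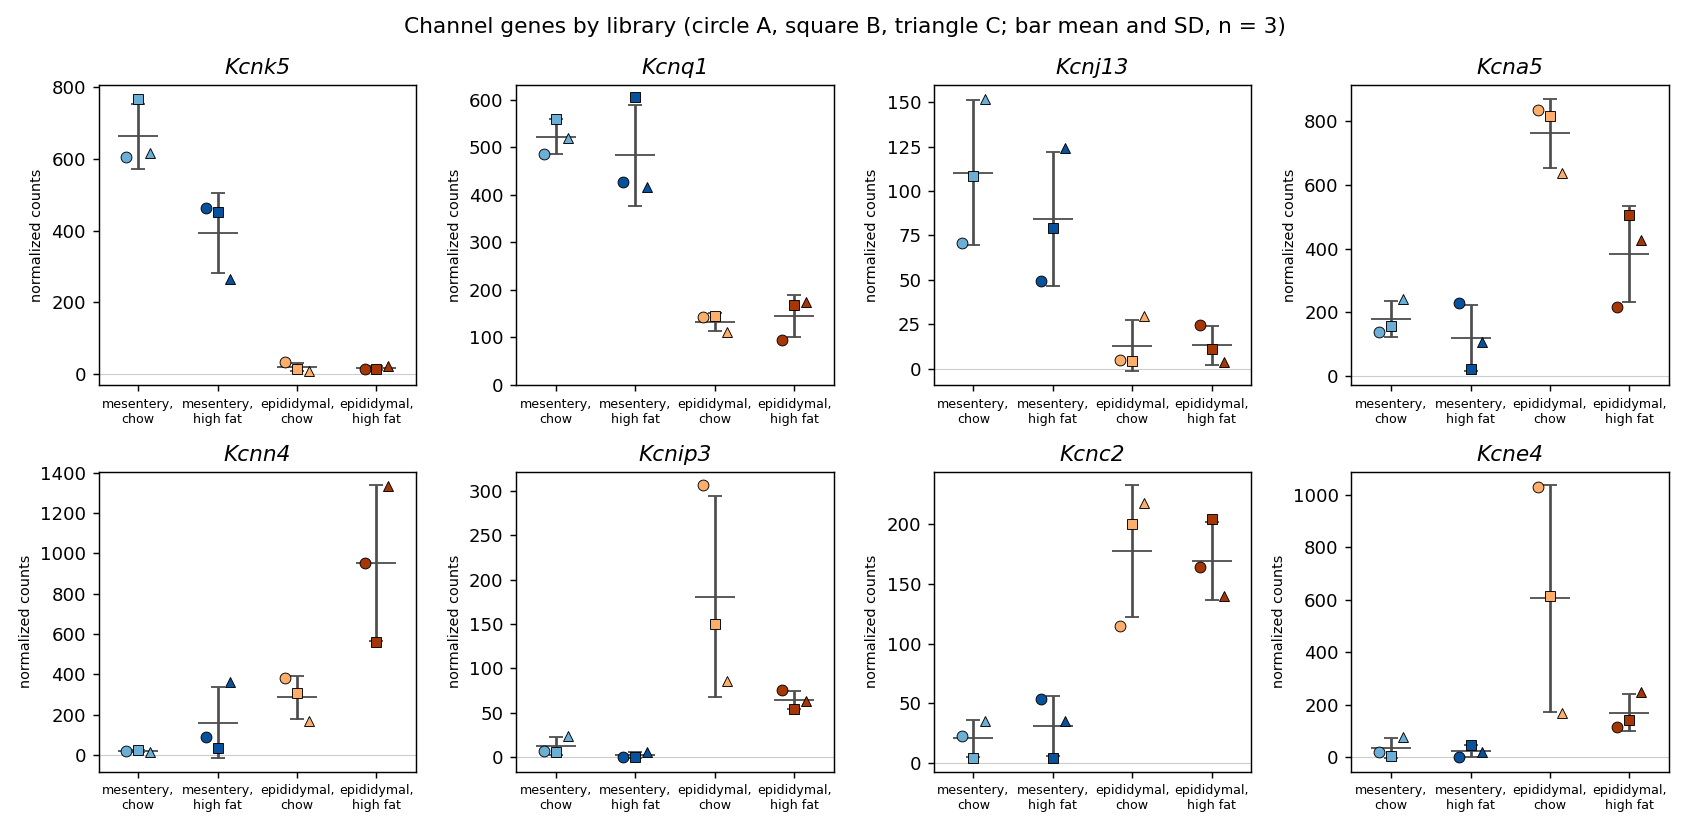
Normalized counts of 8 channel genes in each library (circle A, square B, triangle C) with the group mean and SD (n = 3). Kcnk5, Kcnq1 and Kcnj13 are higher in the 6 mesenteric libraries, and in chow epididymal fat Kcne4 runs from 170 to 1032 and Kcnip3 from 85.8 to 306.

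Auxiliary subunits, which change the gating or surface level of the pore subunits, were higher in epididymal fat wherever they passed. Kcne3 had 253, 202 and 222 normalized counts in chow mesentery and 519, 450 and 370 in chow epididymal fat (0.97, SE 0.265, adjusted p 0.0279), with no overlap. Kcne3 in high fat libraries was 387, 209 and 331 in mesentery and 326, 529 and 370 in epididymal fat, which overlapped. Kcne4, which is known to restrain some Kv1 and Kv7 channels, had 19.4, 6.27 and 77.4 in chow mesentery and 1032, 614 and 170 in chow epididymal fat (4.40, SE 1.23, adjusted p 0.0317). High fat values of Kcne4 were 0, 47.1 and 20.7 in mesentery and 117, 141 and 251 in epididymal fat (3.99, adjusted p 0.0650). The epididymal Kcne4 values on chow were lowest in library C and highest in A. So were the sums of the smooth muscle, fibroblast, lymphatic and arterial endothelial markers, though not each marker on these lists. The part of these lists was not tested. Both chow calls were lost without mesenteric chow A or B or epididymal chow A or B (adjusted p up to 0.121 for Kcne3 and 0.141 for Kcne4). The Kcne3 call was also lost with edgeR and TMM scaling (0.0516) and that of Kcne4 with a pseudocount of 0.5 (0.0524).

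The Kv4 partner Kcnip3 (KChIP3, a calcium sensor) had 6.83, 5.38 and 23.9 normalized counts in chow mesentery and 0, 0 and 5.93 in high fat mesentery. In epididymal fat it had 306, 150 and 85.8 on chow and 75.3, 54.5 and 63.0 on the high fat diet. Each epididymal library was above each mesenteric one, with a difference of 3.89 on chow (SE 0.913, adjusted p 0.0135) and 5.09 on the high fat diet (adjusted p 0.00403). On chow its epididymal value was highest in library A and lowest in C. So were the sums of fibroblast, smooth muscle, lymphatic and arterial endothelial markers, though not each marker on these lists. The part of these lists was not tested. The chow call was lost without mesenteric chow A or B or epididymal chow A or B (adjusted p up to 0.0907). Kcnip1 (KChIP1), of the same calcium sensor family, had at most 2 reads per library in mesentery. In epididymal fat it had 336, 46.9 and 29.6 on chow and 8.99, 28.9 and 35.4 on the high fat diet, at least 39.9-fold (adjusted p 0.00783) and at least 7.38-fold (adjusted p 0.0375) higher against 3 reads per library. The Kcnip1 call was lost on chow without epididymal chow A (adjusted p 0.0660) and on the high fat diet without 6 libraries (mesenteric high fat A, B or C, epididymal chow B, epididymal high fat B or C; up to 0.179), and with a pseudocount of 5 (0.0966).

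Among TRP channels Trpv2, known from macrophages and muscle as a calcium-permeable channel, was the one that passed. It had 26.2, 8.96 and 81.7 normalized counts in chow mesentery and 96.3, 158 and 203 in chow epididymal fat (2.38, SE 0.659, adjusted p 0.0303). In high fat libraries Trpv2 had 125, 59.6 and 112 in mesentery and 489, 170 and 419 in epididymal fat (1.78, adjusted p 0.126). The tissues did not overlap on either diet. In libraries A, B and C of chow epididymal fat the macrophage and leukocyte markers summed to 7303, 74511 and 4564, where Trpv2 was 96.3, 158 and 203. On the high fat diet they summed to 152733, 117430 and 289224 there, where Trpv2 was 489, 170 and 419. The part of these markers in the result was not tested. The chow call was lost without mesenteric chow A or B or epididymal chow A, B or C (adjusted p up to 0.106), and with edgeR under both scalings (0.0712 and 0.0854).

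The most abundant member by normalized count was Trpm7, a channel with a kinase domain that carries magnesium and calcium. It had 953, 977 and 814 in chow mesentery, 634, 692 and 788 in high fat mesentery, 559, 666 and 668 in chow epididymal fat and 627, 508 and 397 in high fat epididymal fat. The epididymal minus mesenteric difference was -0.53 log2 units on chow (SE 0.193, adjusted p 0.0922) and -0.48 on the high fat diet (adjusted p 0.159); the tissues did not overlap and neither contrast passed. Trpv4, the calcium entry channel of endothelial dilation, averaged 278 ± 106 and 291 ± 63.3 in mesentery on the 2 diets (chow first) and 276 ± 92.4 and 197 ± 60.9 in epididymal fat (SD, n = 3). Its groups overlapped in all 4 pairwise contrasts. Trpm4, a channel for monovalent cations that calcium opens, averaged 279 ± 55.7, 240 ± 92.4, 169 ± 27.9 and 143 ± 28.3 in the same order and did not pass. Trpm3 averaged 158 to 290, with its 4 highest values in mesenteric chow C (605), epididymal high fat A (504), epididymal chow C (489) and mesenteric high fat C (304), the 4 libraries with the highest receptor level.

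The remaining TRP members with a known vascular role were low. Trpc1, Trpc4 and Trpc6, of the receptor-operated canonical class, averaged 6.19 to 82.0, 19.0 to 50.7 and 17.7 to 36.4 normalized counts in the groups. Trpm2, opened by oxidants, averaged 27.0 to 72.4, Trpv3 13.6 to 35.2 and the capsaicin receptor Trpv1 0 to 14.6. Trpa1 averaged 3.30 to 6.03 and Trpc5 4.22 to 8.61, and both stayed under the filter. None of these passed in any contrast.

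**Figure D4:**
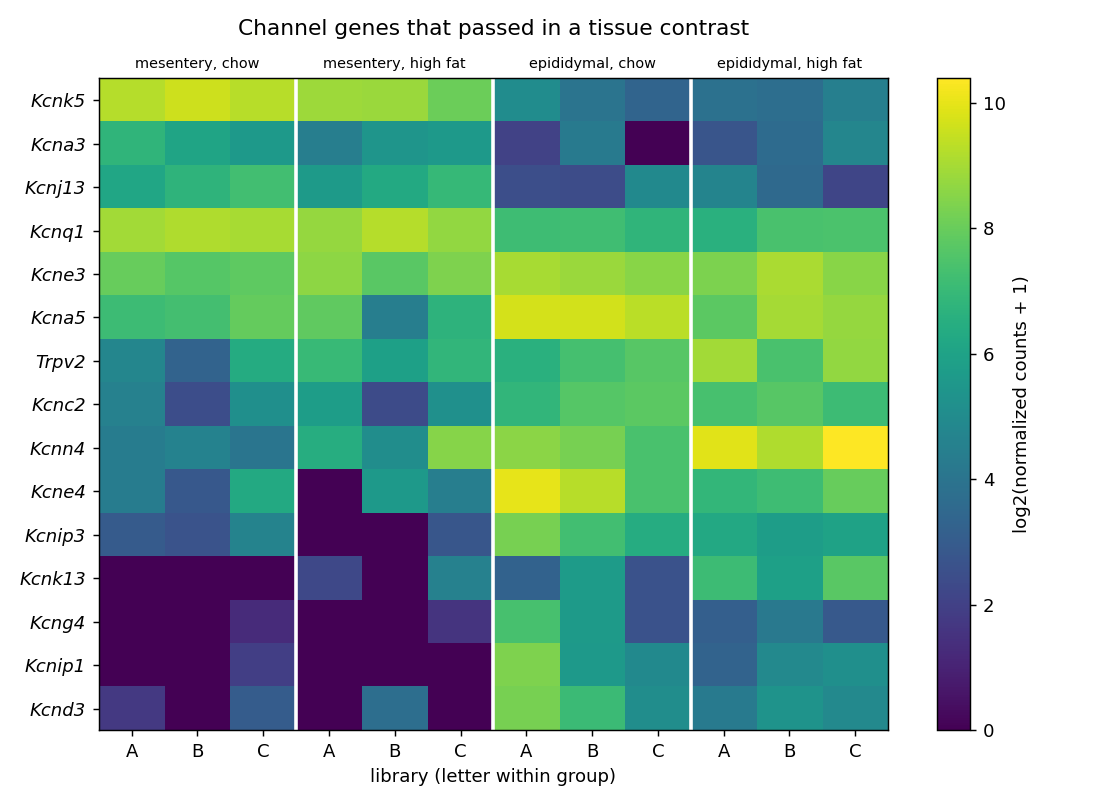
Log2(normalized count + 1) of 15 channel genes that passed in a tissue contrast, in rows, for the 12 libraries in columns. The first 4 rows (Kcnk5, Kcna3, Kcnj13, Kcnq1) are brighter in mesentery and the other 11 in epididymal fat; Kcnip1, Kcng4 and Kcnd3 are near 0 in most mesenteric libraries.

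For diet no tested member of 67 passed in either tissue (limma). In mesentery 0.0135% of all tested genes passed and in epididymal fat 0.549%. At an unadjusted p under 0.05 there were 6 members in mesentery (6.15% of all tested genes) and 3 in epididymal fat (6.94%). In mesentery the adjusted p of the members was 0.509 or more. Groups did not overlap in 5 members in mesentery (9.61%) and 11 in epididymal fat (13.5%). With DESeq2 1 member passed in mesentery, Kcnn4, and none in epididymal fat, where 0.693% and 2.46% of all tested genes passed. With edgeR under both scalings none passed in either tissue. Of all tested genes 0.0045% passed in mesentery and 0.13% in epididymal fat with TMM scaling, and 0.00899% and 0.279% with the deposited size factors. The median log2 change was -0.28 for members and -0.0023 for all tested genes in mesentery, and 0.14 and 0.095 in epididymal fat.

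Kcnn4 had the lowest unadjusted p of the members in mesentery. It was 15.5 to 23.3 normalized counts in chow mesentery and 33.3 to 362 on the high fat diet, a difference of 2.36 log2 units (SE 0.656, unadjusted p 0.00316, adjusted p 0.509; DESeq2 3.05, adjusted p 0.00462). In epididymal fat it was 171 to 383 on chow and 563 to 1336 on the high fat diet (1.72, unadjusted p 0.0210, adjusted p 0.479). The diets did not overlap in either tissue. In high fat mesentery Kcnn4 was 87.9, 33.3 and 362 where the macrophage and leukocyte markers summed to 14598, 3877 and 21733, and their part was not tested.

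Other members are given by their values, since none passed. In mesentery Trpc1 had 34.2, 26.0 and 186 normalized counts on chow and 3.74, 0 and 14.8 on the high fat diet (-3.74, adjusted p 0.572). Trpv2 (1.76), Trpv1 (3.32) and Kcnip3 (-2.50) had adjusted p of 0.679 to 0.701. In epididymal fat Kcnk13 had 8.61, 51.3 and 5.11 on chow and 138, 59.5 and 211 on the high fat diet (3.06, adjusted p 0.577). Kcna5 (638 to 835 on chow, 216 to 507 on the high fat diet) and Kcnip3 (85.8 to 306, 54.5 to 75.3) had lower values in high fat epididymal fat, without overlap with chow. Kcnj2 (69.7 to 78.2 on chow, 92.5 to 183 on the high fat diet) and Kcng2 (Kv6.2; 38.2 to 61.3, 69.4 to 82.1) had higher values there, also without overlap. In mesentery Kcnk5 (605 to 769 on chow, 266 to 462 on the high fat diet) and Trpm7 (814 to 977, 634 to 788) had lower values on the high fat diet, without overlap.

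**Figure D5:**
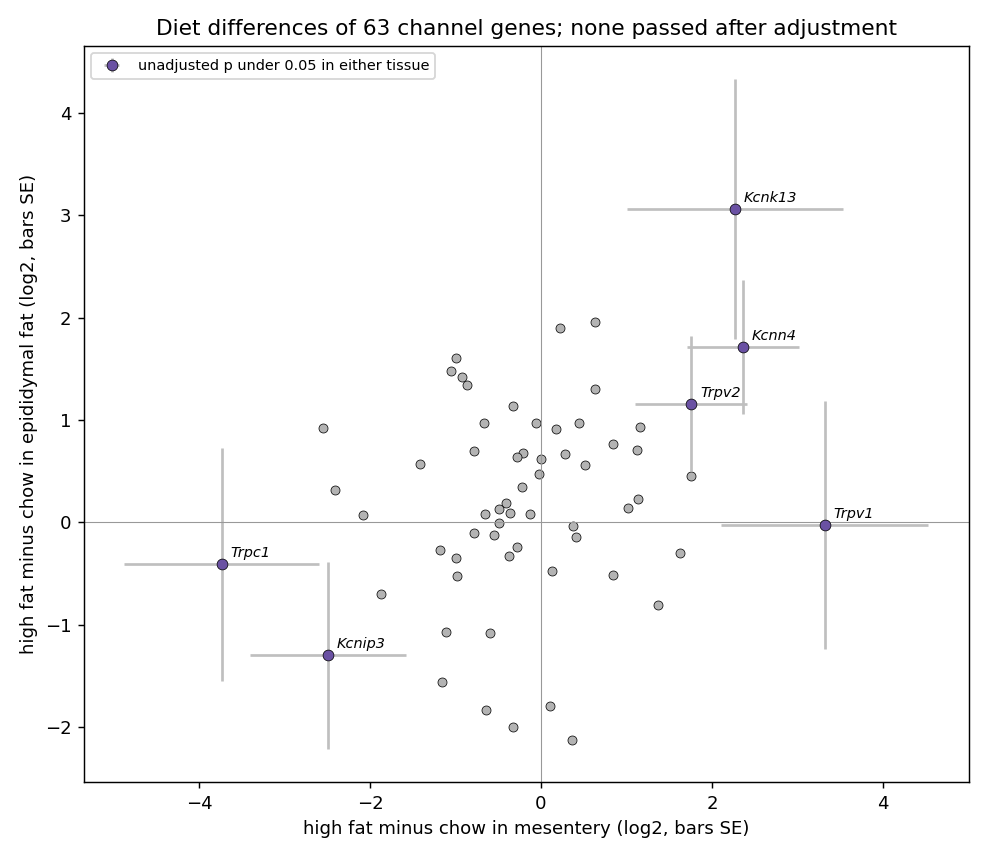
Diet difference of 63 tested channel genes in mesentery (horizontal) and epididymal fat (vertical), high fat minus chow in log2 units; bars of 1 SE are drawn for the 6 of them with an unadjusted p under 0.05 in either tissue. Kcnn4 (2.36 and 1.72) is up and right, and Kcnip3 (-2.50 in mesentery) left.

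The interaction, which asks if the diet effect differed by tissue, passed in no member and in 0.0045% of all tested genes. At an unadjusted p under 0.05 there were 2 members (4.71% of all tested genes). The median was 0.49 for members and 0.11 for all tested genes. The ATP-sensitive channel gene Kcnj8, left out by the rule, had an interaction of -3.68 in the same fit (adjusted p 0.00218). With edgeR or DESeq2 no member passed the interaction either (0.0045% of all tested genes with edgeR under both scalings, 0.598% with DESeq2).

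Partners of these channels came from a list of 47 genes for calcium entry and release, calcium pumps, cell coupling, regulatory subunits and outputs, of which 42 were tested. On chow 10 passed (12.8% of all tested genes did), 7 higher and 3 lower in epididymal fat, and under high fat feeding 5 (8.34%), 2 higher and 3 lower. None passed for diet in either tissue or for the interaction with limma, where 7, 4 and 2 had an unadjusted p under 0.05 (6.15%, 6.94% and 4.71% of all tested genes). Higher in epididymal fat on both diets were Gja5 (connexin 40, which couples endothelial cells; 1.64 and 1.40) and Atp2a3 (the SERCA3 calcium pump; 2.18 and 1.15). Lower on both were Piezo2 (a stretch-gated channel; -3.74 and -2.87) and Stim1 (the calcium sensor of store-operated entry; -0.91 and -0.93). Among the others on chow, Abcc9 (the SUR2 regulatory subunit of ATP-sensitive channels; 3.16), Cav1 (caveolin 1; 1.76), Calm3 (calmodulin; 1.06) and Panx1 (a pannexin; 1.02) were higher and Stim2 lower (-0.90). On the high fat diet Gjc1 (connexin 45) was lower (-1.07). Gja5 averaged 341 ± 130 and 436 ± 167 normalized counts in mesentery on the 2 diets (chow first) and 1057 ± 348 and 1121 ± 313 in epididymal fat (SD, n = 3). Piezo2 averaged 993 ± 296 and 773 ± 139 in mesentery and 108 ± 110 and 127 ± 102 in epididymal fat. The smooth muscle, pericyte, fibroblast and macrophage marker sums differ between these groups too, and their part in the partners' differences was not tested.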

How the data were processed

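Per the file headers, the deposited table gives the normalized count of each gene (a signal, 0 or more) in 12 RNA-seq libraries. Per the submitters' processing notes the authors used STAR 2.7.9a, featureCounts of Subread, DESeq2 1.34.0 and the mm39 build; annotation and strand are not given in the sources used here. Of the deposited values 100% were whole reads times a step per library (within 1e-06 reads), so reads were recovered by division, and genes with under 51 reads over all libraries are not in the table. Rows were matched by symbol.

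Groups were compared with limma 3.58.1 in R 4.3.3 (lmFit, then eBayes with trend) on log2(normalized count + 1) of 22238 genes with a mean of at least 10, with a mean per group and 5 contrasts. Each contrast had its own Benjamini-Hochberg adjustment (threshold 0.05). This scale understates the change of low genes. Deposited coordinates were not used; exon lengths come from GENCODE M21. Alternatives were other pseudocounts and filters, other scalings, edgeR 4.0.16, DESeq2 1.42.0, a replicate block, the number range and each library left out. Scripts were tested on simulated data.

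Members and gene lists were chosen with earlier results of these data known. Named were members that passed, members with a vascular role, the 12 with the highest mean, and up to 4 each way per contrast with the largest change among those whose groups did not overlap and whose higher group averaged 50 or more, and partners that passed; a few of these genes are not reported here by name or in figures, while counts include them; genes listed in the background and number-range counts were named after their values were seen. The number-range term, the level per kilobase of receptor genes and the setting without the 4 libraries of highest receptor level were chosen after the data were seen.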

Additional observations from a re-analysis of the deposited data

How the results depend on the processing

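Of the 5 counts of passing members, those for diet in epididymal fat and for the interaction stayed at 0 in each alternative, and that for diet in mesentery was 1 with DESeq2 and 0 otherwise. For tissue on chow the count was 15, 10 to 20 over the other tools, filters, scalings and library subsets, and 4 to 17 with a single library left out. The 10 came from a filter at a mean of 50, where 23 members were tested and 23.4% of all tested genes passed. The 20 came from DESeq2 and from the setting without the 4 libraries of highest receptor level, where 17.7% and 21.3% of all tested genes passed. For tissue on the high fat diet the count was 7 (8.34% of all tested genes passed). It was 4 with edgeR and TMM (4.59%) and 12 with DESeq2 (13.2%). With the number range as a covariate it was 12 (11%), and without the 4 libraries of highest receptor level 14 (14.9%). Single left-out libraries gave 3 to 12 there and 0 to 0 for both diet contrasts and the interaction. The cause of these shifts was not tested. With the replicate block (letter for diet, sample number for tissue and interaction) 13 members passed on chow, 8 on the high fat diet and 0 in the other contrasts; the calls of Kcna5 (adjusted p 0.0602), Kcne3 (0.0566) and Kcng4 (0.0504) on chow and of Kcnip1 (0.0538) on the high fat diet missed the threshold under the block. The labels do not say that a number marks the same mice: deviations of same-numbered libraries correlated by 0.0273 to 0.583 on chow and by -0.149 to 0.146 on the high fat diet, and 5 of 6 and 2 of 6 libraries correlated best with their own number, a hint from the data and not from the design. Scaling columns to the same total moved the median log2 difference of all tested genes from -0.0023 to 0.13 (diet, mesentery), 0.095 to -0.040 (diet, epididymal fat), 0.060 to -0.12 (tissue, high fat diet) and 0.11 to -0.16 (interaction), and turned no called member; of all calls for diet in epididymal fat 63.8% were then higher, against 76.2%. Among single-member results 4175 kept their side, 66 passed in addition, 94 no longer passed and 240 that passed in neither fit changed sign; no called value changed sign. Means were 10 to 100 normalized counts for 53 of 79 members, and the shallowest library had 8348897 reads; the effect of depth on the calls was not tested.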
